A study of Rattus norvegicus with 21 samples.

Results

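Most of the genes described here encode the growth factors of the FGF, TGF-beta, activin, BMP, GDF, PDGF and IGF families, their receptors and the SMAD proteins. They were taken as every probe of a rat array whose gene symbol in the platform annotation begins with Fgf, Tgfb, Bmp, Gdf, Inha, Inhb, Acvr, Pdgf or Smad, or is Igf1, Igf2, Igf1r or Igf2r, with 1 FGF receptor gene left out. The rule gave 66 of the 5376 probes in the table, for 61 of 4153 genes, and no measured value entered it. Probes of the same gene were kept apart. The 66 probes comprised 14 for FGF genes, the FGF carrier Fgfbp1 included, and 6 for FGF receptors, among them the Fgfr1 pseudogene Fgfr1-ps1. Another 5 were for TGF-beta ligands, 2 for TGF-beta receptors, 4 for activin and inhibin subunits and 6 for activin receptors. A further 7 probes were for BMP genes, 1 for a BMP receptor, 4 for GDF ligands, 7 for SMAD proteins, 4 for PDGF ligands, 2 for PDGF receptors and 4 for IGF genes.

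FGF, PDGF and IGF ligands act through receptor tyrosine kinases, which feed the Ras to MAP kinase and the PI3 kinase to Akt cascades. TGF-beta, activin, GDF and BMP ligands bring together type II and type I receptor kinases. TGF-beta and activin type I receptors, Acvr1b among them, phosphorylate Smad2 and Smad3, whereas BMP type I receptors phosphorylate Smad1, Smad5 and Smad9, and both kinds pair with Smad4 while Smad7 holds the pathway back. In the spinal cord these families are known for neuron survival, the proliferation of oligodendrocyte progenitors and astrocytes, and scar formation after damage.

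The arrays compared rat spinal cord RNA in 7 groups of 3. The treated groups were spinal cord cultures kept for 4 hr with CKIN, MP, acetaminophen (Acet), indomethacin (Indo) or NS398. The Injured 4 hr group held unpooled cultures kept for 4 hr, likely with the vehicle PBS, which the titles name only for their pool. The Uninjured group, named only CT in the titles and with no time in culture, was taken as cord measured straight after dissection. The labels give only the letters CKIN and MP, which background knowledge reads as inhibitors of cytokines and the glucocorticoid drug methylprednisolone. Indomethacin blocks both cyclooxygenases, NS398 mainly cyclooxygenase 2, and acetaminophen is a pain reliever. The sources used here give no strain, sex, age or dose, and the injury is the cutting and culturing of the tissue rather than a lesion in a living animal. Each array carried a sample beside a pool of cultures treated with vehicle for 4 hr. The pool was of ethanol (ETOH) cultures for Indo, of DMSO cultures for NS398 and of PBS cultures for the other 5 groups. That the PBS arrays all carried the same pool is likely from the labels but not stated, and the differences of Injured 4 hr from Uninjured and of CKIN, MP and Acet from Injured 4 hr rest on it.

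Each value is a log2 ratio of the sample over its pool, centred on the median of its array, so that 0 is the array's typical probe. Sample over pool is the likely direction, from the order of the RNAs in the titles, and it is not stated. A difference was called where its 2-sided Benjamini-Hochberg adjusted p in limma was under 0.05 over all probes tested. Nothing in the labels says that replicates were separate animals or cultures, so a p-value here weighs only the spread among these samples. In bulk tissue fewer cells of a type and less RNA per cell cannot be told apart.

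Before centring, array medians ran from -1.63 to 0.69 on the 15 treatment arrays, from -2.27 to -2.13 on the Injured 4 hr arrays and from -4.13 to -3.11 on the Uninjured arrays. Of the treatment arrays, 10 had more than 1100 missing spots: all 3 of CKIN, all 3 of Indo, MP 1 and 3, Acet 1 and NS398 1. Between 41 and 66 of the 66 probes were measured per array, 13 were measured on all 21 arrays, and Fgf1 and Fgf4 on 9. Ratios of whole numbers up to 10 made up 3.724% to 5.826% of the values of each treatment array, within 0.0001 on the log2 scale, and 0.023% to 0.662% on each of the Injured 4 hr and Uninjured arrays. That mark parts the treated arrays from the Injured 4 hr arrays they are set against, so array processing and treatment cannot be told apart there. Ratios also varied with the Injured 4 hr ratio of a probe and with its source plate. Each result was therefore repeated in ratios from which a loess curve and the plate medians had been subtracted, called corrected ratios below. The curve was fitted on the mean Injured 4 hr ratio, so that group's corrected ratios average near 0 by construction. A corrected difference from Injured 4 hr is thus no independent repeat of the centred one.

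The promoter sequences of 4 genes are shown because they are described most fully: Fgf9, whose fall in culture was the one injury result called in both kinds of ratio, and Acvr1b, Smad2 and Smad3, which lay lower on every treatment array than on every Injured 4 hr array. That pattern was held by 6.52% of the members and by 6.95% of all probes, a share near the background. Each is the RefSeq window of 250 bases before to 50 after a gene start in build GRCr8, written along the gene's own strand, and capitals mark the GC box GGGCGG on either strand. The windows lie at chr15:36327108-36327407 on the plus strand for Fgf9, chr7:134164751-134165050 on the plus strand for Acvr1b, chr18:72125094-72125393 on the plus strand for the first of the Smad2 starts, and chr8:73132275-73132574 on the minus strand for Smad3.
Fgf9: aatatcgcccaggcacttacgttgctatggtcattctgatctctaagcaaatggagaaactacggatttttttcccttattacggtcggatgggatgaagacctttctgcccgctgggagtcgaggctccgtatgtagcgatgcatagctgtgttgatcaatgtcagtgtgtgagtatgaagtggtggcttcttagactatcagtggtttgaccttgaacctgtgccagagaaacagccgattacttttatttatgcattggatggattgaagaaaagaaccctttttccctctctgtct
Acvr1b: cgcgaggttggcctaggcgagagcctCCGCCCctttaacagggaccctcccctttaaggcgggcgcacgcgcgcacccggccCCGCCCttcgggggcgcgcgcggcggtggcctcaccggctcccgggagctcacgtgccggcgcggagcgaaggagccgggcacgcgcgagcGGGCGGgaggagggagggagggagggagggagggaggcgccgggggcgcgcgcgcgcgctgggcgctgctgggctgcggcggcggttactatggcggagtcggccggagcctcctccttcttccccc
Smad2: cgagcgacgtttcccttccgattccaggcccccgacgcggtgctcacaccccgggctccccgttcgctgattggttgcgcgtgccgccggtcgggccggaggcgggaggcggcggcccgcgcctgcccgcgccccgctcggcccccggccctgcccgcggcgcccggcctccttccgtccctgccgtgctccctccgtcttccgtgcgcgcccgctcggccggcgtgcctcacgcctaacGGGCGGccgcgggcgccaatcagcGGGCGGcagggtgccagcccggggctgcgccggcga
Smad3: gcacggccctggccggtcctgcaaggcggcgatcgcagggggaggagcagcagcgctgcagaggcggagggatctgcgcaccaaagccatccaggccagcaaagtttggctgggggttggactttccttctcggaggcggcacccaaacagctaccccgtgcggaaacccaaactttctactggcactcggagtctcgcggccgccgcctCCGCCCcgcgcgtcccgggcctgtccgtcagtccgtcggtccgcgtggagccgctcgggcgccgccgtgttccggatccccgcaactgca

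The Fgf9 window was 44.7% G and C, at the lower quartile of 33469 RefSeq rat promoters, whose median was 51.7%. The Acvr1b window was 78.0%, the Smad2 window 80.0% and the Smad3 window 69.7%, all above the upper quartile of 60.3%. Acvr1b held 3 GC boxes, Smad2 held 2, Smad3 held 1 and Fgf9 held 0, and the box was present in 33.1% of all promoters. A second Smad2 window, at chr18:72125329-72125628, held 5. It overlaps the first window, and the 2 GC boxes of the first lie in the overlap and are counted in both. On both strands, none of the 4 windows held the cyclic AMP element TGACGTCA (1.83% of all promoters), the AP-1 site TGANTCA (7.33%), or the SMAD-binding element CAGAC (50.1%). CCAAT, found in 37.5% of promoters, occurred once in Fgf9 and 2 times in Smad2. None of these motifs contains another, and a match describes letters, not a bound site. Of the 61 genes, 51 had a promoter in the table.

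After 4 hr of culture, 4 probes of FGF genes were called lower than in fresh cord and no probe of the families was called higher in the fit of all arrays. They were Fgf9, a ligand first described as a glia-activating factor, Fgf13, an intracellular FGF relative that binds voltage-gated sodium channels, and 1 probe each of the receptors Fgfr1 and Fgfr2. In this comparison 66 probes were tested and 0 were called higher and 4 lower (6.06%), against 14.1% of all 4822 probes tested, 0.788% higher and 13.4% lower. The median difference of the 66 was 0.27 and that of all probes tested -0.05. Among all probes called, 5.57% were higher in centred, 70% of only 20 called in quantile-normalized and 99.4% in deposited ratios. Fitted on the Injured 4 hr and Uninjured arrays alone, centred ratios gave 5 members called higher and 7 lower. In that fit 28.1% of all called probes were higher. The split of directions thus rests on the scaling and on the arrays in the fit. In corrected ratios 2 members were called higher and 2 lower.

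**Figure D1:**
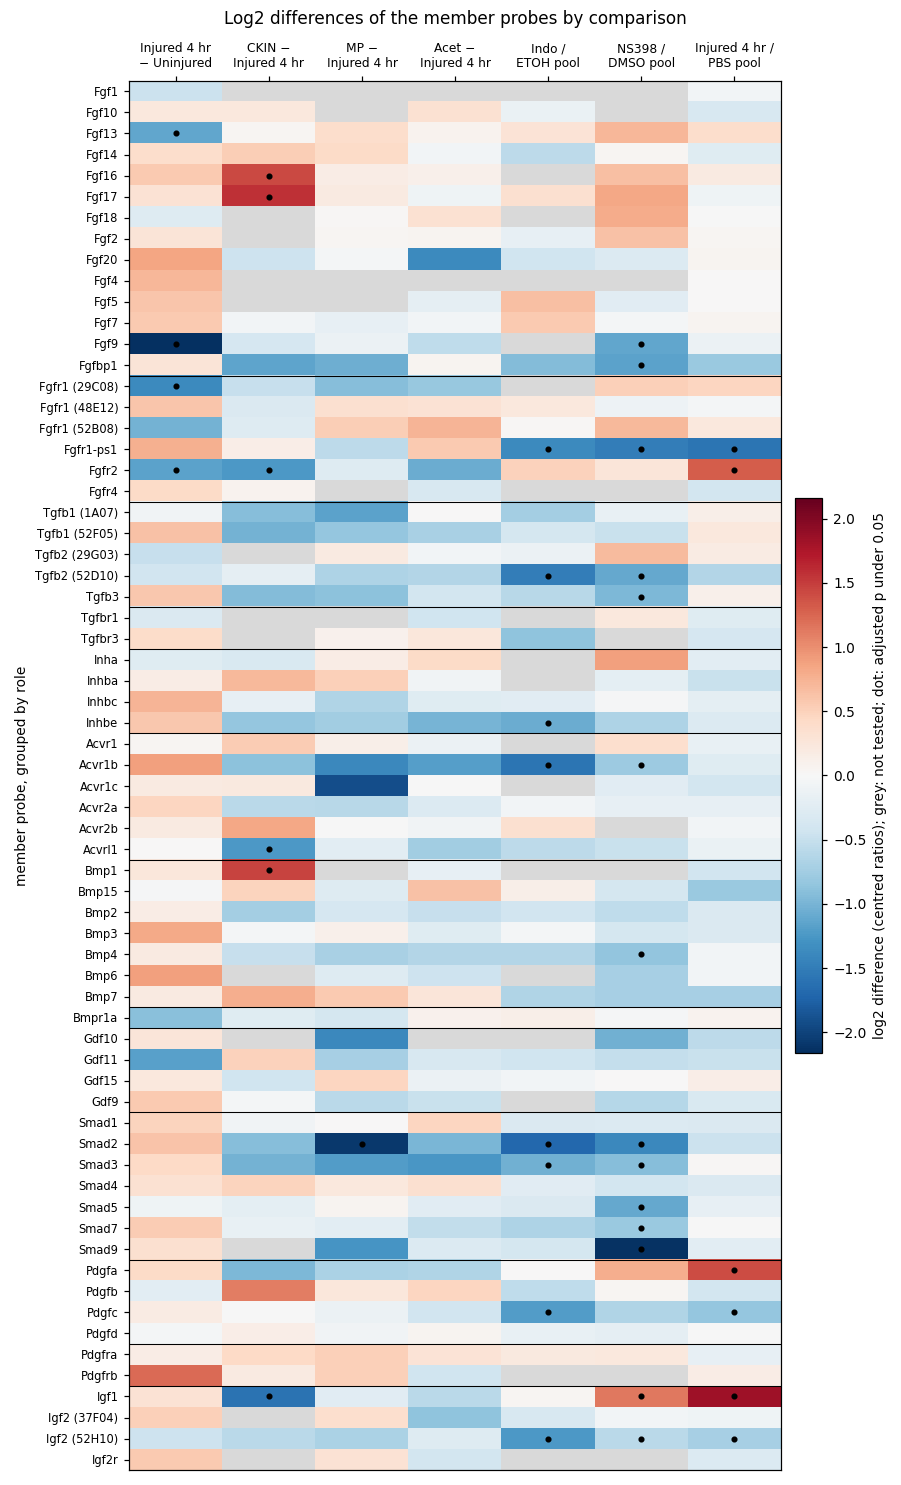
Log2 differences of the 66 probes (rows, grouped by role) in 7 comparisons (columns), with red for higher and blue for lower in the first-named group, grey where a probe was not tested and a dot where the adjusted p was under 0.05. The injury column has 4 dots, all blue and all on FGF or FGF receptor genes, the Acet column has none, and the NS398 column has 14, of which 5 are on SMAD genes.

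Fgf9 stood at -0.22, 0.17 and -0.35 on the Injured 4 hr arrays, against 2.12, 1.92 and 2.04 on the Uninjured arrays. The groups were far apart, at -0.13 ± 0.27 in Injured 4 hr and 2.03 ± 0.10 in Uninjured (SD, n = 3 each). The difference was -2.16 ± 0.44 (SE, adjusted p = 0.00296 in limma). With each of the 6 arrays left out in turn it stayed called, between -2.31 and -2.05, and in corrected ratios it was -2.23 (adjusted p = 0.00307). It was -1.18 after quantile normalization (adjusted p = 0.582) and -0.63 in deposited ratios, and not called in either. On the treatment arrays every measured Fgf9 value lay between -1.69 and 0.20.

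Fgf13 had 0.36, 0.49 and 0.30 in Injured 4 hr, against 1.42, 1.82 and 1.27 in Uninjured, a difference of -1.12 ± 0.33 (SE, adjusted p = 0.027). The groups did not overlap, but the call was lost when any of 5 of the 6 arrays was left out (all but Uninjured 3). Fgfr2, a receptor for many FGF ligands, had 1.66, 1.15 and 1.09 in Injured 4 hr, against 2.67 and 2.22 on the 2 Uninjured arrays that measured it. Its difference of -1.15 ± 0.37 (adjusted p = 0.0432) was called with no array left out and in none of the 4 fits without 1 array. In corrected ratios Fgf13 was at -0.45 and Fgfr2 at -0.39, neither called.

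Fgfr1, a receptor for many FGF ligands in the nervous system, was read by 3 probes that disagreed. Probe 29C08 had 0.46, 0.72 and 0.21 in Injured 4 hr, against 1.29, 2.24 and 1.99 in Uninjured, a fall of -1.38 ± 0.44 (SE, adjusted p = 0.0408) that was called without 1 of the 6 arrays and not without any of the other 5, and that was -0.79 in corrected ratios. Probe 52B08 had 0.71, -0.18 and 0.13 in Injured 4 hr, against 0.53, 1.84 and 1.38 in Uninjured, a difference of -1.03 that was not called, with overlapping groups. Probe 48E12 had 0.22, -0.35 and 0.00 in Injured 4 hr, against -0.55, -0.30 and -1.07 in Uninjured, a difference of 0.60 that was not called. The gene as a whole therefore has no settled direction.

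**Figure D2:**
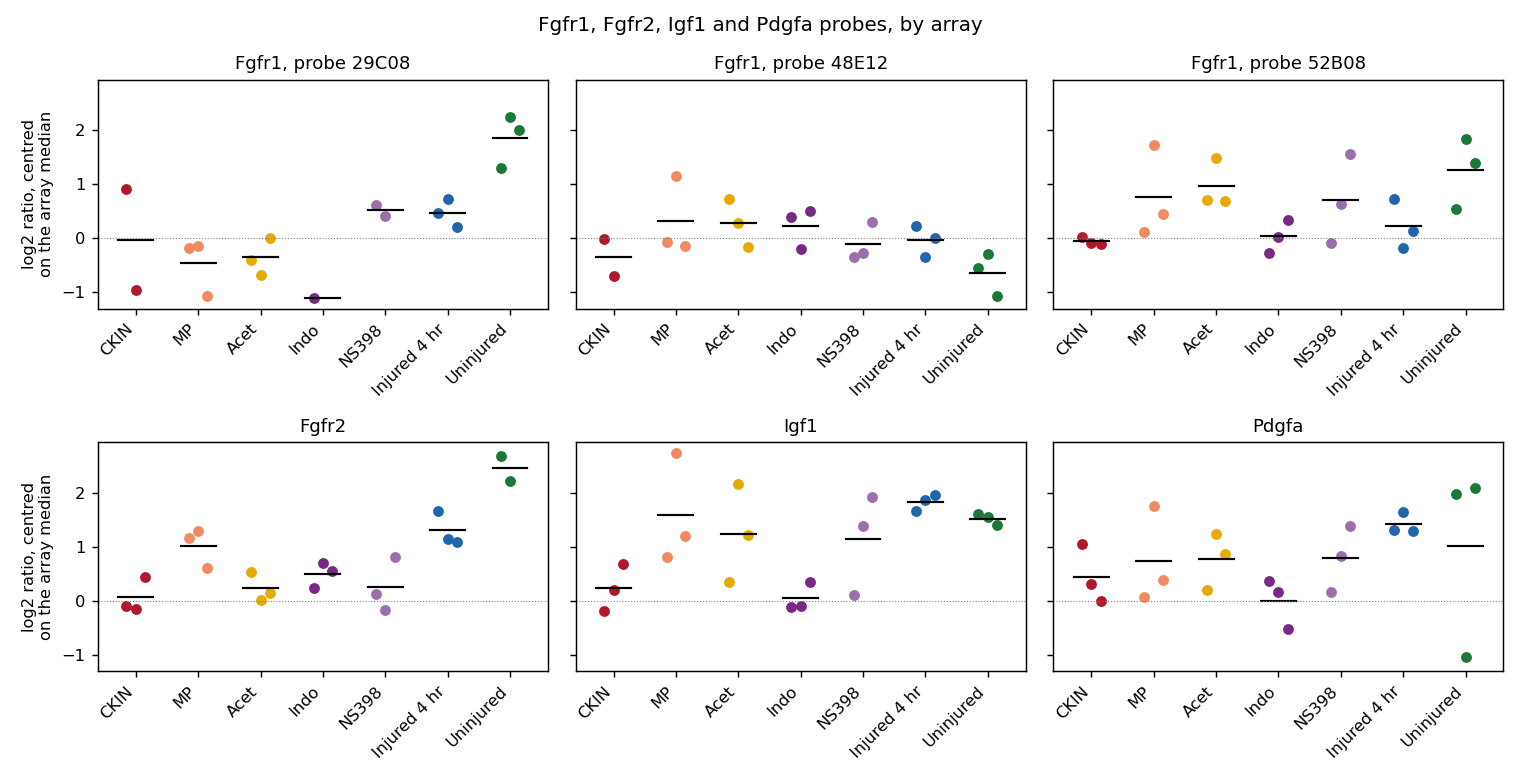
Centred log2 ratios (vertical axis) of 3 Fgfr1 probes, Fgfr2, Igf1 and Pdgfa on each array (points) with group means (bars), with the treated groups left of Injured 4 hr and Uninjured. Fgfr1 probe 29C08 is lower in Injured 4 hr than in Uninjured whereas probe 48E12 is not, and the Injured 4 hr values of Igf1, Fgfr2 and Pdgfa all lie above 1.

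Cell type markers moved in the same comparison. Of 11 neuron probes 7 were lower, with array medians of 1.56 to 1.67 in Injured 4 hr and 3.25 to 3.78 in Uninjured, and of 9 astrocyte probes 6 were lower, at 0.71 to 1.27 in Injured 4 hr and 2.62 to 3.08 in Uninjured. Of 9 myelin probes 1 was lower, and none of the 6 microglia, 9 connective tissue, 9 endothelium or 4 blood probes was called. The part of this shift in the falls of Fgf9, Fgf13, Fgfr1 and Fgfr2 was not tested. Ratios against a pool hold no levels, so the defining markers show differences between samples but not how much of a cell type was there.

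Pdgfrb, Gdf11 and Igf1 missed the threshold in culture against fresh cord in centred ratios but were called in corrected ratios. Pdgfrb, the PDGF receptor of pericytes and fibroblasts, had -0.08, 0.27 and 0.27 in Injured 4 hr, against -0.87, -1.32 and -1.01 in Uninjured, the largest positive difference at 1.22 (adjusted p = 0.067). Gdf11, a ligand that signals through Smad2 and Smad3, had -0.80, -0.07 and -0.56 in Injured 4 hr, against 0.84, 0.49 and 0.74 in Uninjured, a difference of -1.17 (adjusted p = 0.0612). Both were called in corrected ratios, Pdgfrb at 1.62 (adjusted p = 0.0283) and Gdf11 at -1.52 (adjusted p = 0.031). Igf1, a survival factor for neurons and oligodendrocytes, differed by 0.31 in centred ratios, not called, and by 1.12 in corrected ratios (adjusted p = 0.0166). The next highest centred differences were those of Acvr1b at 0.88 and Bmp6 at 0.88, neither called.

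The other ligands and receptors gave no call after culture. Both Tgfb1 probes (-0.08 and 0.63), both Tgfb2 probes (-0.42 and -0.49) and Tgfb3 (0.57) lay within 1 log2 unit of 0. So did the receptors Tgfbr1 (-0.31) and Tgfbr3 (0.39), the activin and inhibin subunits (-0.26 to 0.73) and the 6 activin receptors (0.01 to 0.88). The BMP genes ran from -0.03 to 0.88 and their receptor Bmpr1a was at -0.90. The 7 SMAD probes ran from -0.09 for Smad5 to 0.62 for Smad2, and PDGF ligands from -0.23 for Pdgfb to 0.41 for Pdgfa. Pdgfa had 1.97, -1.04 and 2.08 in Uninjured, and with 1 array left out its difference ran from -0.61 to 0.95. Gdf15, a stress-response cytokine, was at 0.22, Gdf10 at 0.26, the mitogens Fgf1 at -0.46 and Fgf2 at 0.27, Fgfr4 at 0.41, the Igf2 probes at 0.52 and -0.44, and Igf2r, which clears IGF2, at 0.57. Tgfbr2, Inhbb, Bmpr2 and Igf1r are not analysed here.

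Acvr1b and its substrates Smad2 and Smad3 had lower centred ratios on all 15 treatment arrays than on the Injured 4 hr arrays. Acvr1b ran from -2.41 to -0.42 on those arrays, against -0.34 to -0.18 on the Injured 4 hr arrays. Smad2 ran from -3.26 to -0.96 on the treatment arrays, against -0.93 to -0.16 on the Injured 4 hr arrays. Smad3 ran from -1.81 to -0.48 on the treatment arrays, against -0.35 to 0.35 on the Injured 4 hr arrays. Fresh cord was not high either. On the 2 Uninjured arrays that measured them, Acvr1b was at -0.93 and -1.38, Smad2 at -0.71 and -1.46, and Smad3 at -0.38 and -0.40. Of 46 members with 3 Injured 4 hr values and at least 12 treatment values, these 3 (6.52%) had every treatment array below every Injured 4 hr array and 0 had every one above. Of 3353 probes of the whole table that met the same condition, 6.95% lay wholly below and 0.298% wholly above, so the share among these families is near that of all probes. The Indo and NS398 arrays were hybridised against other pools than the Injured 4 hr arrays, so only the CKIN, MP and Acet arrays share a comparison with them.

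**Figure D3:**
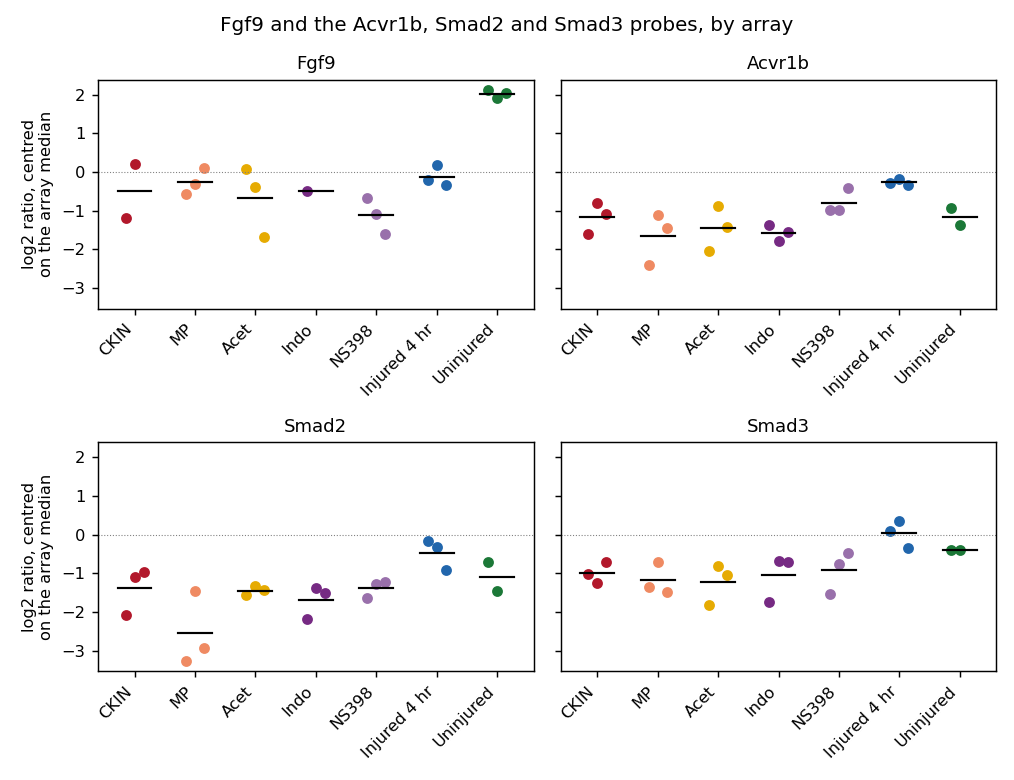
Centred log2 ratios (vertical axis) of Fgf9, Acvr1b, Smad2 and Smad3 on each array (points) with group means (bars), with the treated groups left of Injured 4 hr and Uninjured. Fgf9 stands near 2 on the Uninjured arrays alone, and the treatment arrays of Acvr1b, Smad2 and Smad3 all lie below the Injured 4 hr arrays.

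Other genes of the pathway differed in size and sign, and those among the lowest of a comparison are given with it below. Smad4, the shared partner, differed from Injured 4 hr by 0.48 in CKIN, 0.23 in MP and 0.35 in Acet, and Smad1 by -0.07, 0.02 and 0.47 in the same order. Acvr2a, a type II activin receptor, differed by -0.58 in CKIN, -0.60 in MP and -0.29 in Acet, and Acvr1, a type I receptor for BMP ligands, by 0.55, 0.12 and -0.13. None of these was called. In MP, Smad9 differed by -1.28, lower than Smad3 did, and was not called. Acvr1b, Smad1, Smad2, Smad3 and Smad4 lay on the same source plate, 37, which held 16 of the 66 probes.

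In MP cultures Smad2 was the one probe called, lower, of 59 tested (1.69%), against 2% of all 4391 probes, 0.0455% higher and 1.96% lower. Smad2 stood at -3.26, -1.44 and -2.94 in MP, against -0.16, -0.31 and -0.92 in Injured 4 hr, and the groups did not overlap. The fall was -2.08 ± 0.43 (SE, adjusted p = 0.0195 in limma), and it was -1.71 in corrected ratios (adjusted p = 0.048). The 2 lowest MP values were on the sparse arrays MP 1 and MP 3. Without them the 1 MP array left gave -0.98, a value with no spread of its own. With the sparse arrays as a block the difference was -1.59 (adjusted p = 0.108), and after quantile normalization it was -1.45 (adjusted p = 0.11). The call was lost without any 1 of the arrays MP 1, MP 3, Injured 4 hr 1, 2 or 3, with differences between -2.64 and -1.73 over the 6 such fits. Without MP 2, 4 probes were called lower: Smad2, Acvr1b (-1.66), Smad3 (-1.45) and Tgfb3 (-1.48).

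Acvr1b and Smad3 missed the threshold in MP. Acvr1b had -2.41, -1.10 and -1.44 in MP, against -0.29, -0.18 and -0.34 in Injured 4 hr, a difference of -1.38 (adjusted p = 0.0552). Smad3 had -1.35, -0.70 and -1.49 in MP, against 0.09, 0.35 and -0.35 in Injured 4 hr, a difference of -1.21 (adjusted p = 0.092). Both pairs of groups were apart. Other large differences in MP rested on single arrays: Acvr1c, a type I receptor for activin-like ligands, at -1.91 had -0.57 and -4.03 on the 2 MP arrays that measured it, and Gdf10, a BMP-related ligand, at -1.40 had -1.57, -3.67 and -0.66. The highest differences in MP were those of Bmp7 (0.57), Fgfr1 probe 52B08 (0.54) and Pdgfra (0.52), none called. The median of the 59 was -0.17 and that of all probes tested -0.27.

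In acetaminophen cultures 0 of 63 tested probes were called, against 1.23% of all 4734 probes (0.0845% higher and 1.14% lower), and 7 had an unadjusted p under 0.05 in limma. The lowest differences were those of Fgf20 at -1.37, Smad3 at -1.26 and Acvr1b at -1.18, and the highest were Fgfr1 probe 52B08 at 0.74, Bmp15 at 0.64 and the Fgfr1 pseudogene probe Fgfr1-ps1 at 0.57. Smad3 had -1.81, -0.81 and -1.05 in Acet, against 0.09, 0.35 and -0.35 in Injured 4 hr (adjusted p = 0.104). Acvr1b had -2.05, -0.87 and -1.44 in Acet, against -0.29, -0.18 and -0.34 in Injured 4 hr (adjusted p = 0.114). Smad2 had -1.57, -1.33 and -1.44 in Acet, a difference of -0.98 (adjusted p = 0.31). Groups were apart for all 3 genes. Without Acet 2, Acvr1b was called at -1.47 (adjusted p = 0.0487). Of 9 connective tissue probes 2 were lower in Acet, with array medians of -0.51 to -0.24 in Acet and 0.03 to 0.40 in Injured 4 hr, and their part in these values was not tested.

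In CKIN cultures 3 probes were called higher and 3 lower of 53 tested (11.3%), against 19.4% of all 3736 probes, 1.39% higher and 18% lower. All 3 CKIN arrays were sparse, and 0 of the 6 were called in corrected ratios or with the sparse arrays as a block. After quantile normalization 6 were called higher and 0 lower, and against the PBS pool 2 higher and 10 lower. Among ligands, Fgf16, a relative of Fgf9, had 2.49 and 0.73 on the 2 CKIN arrays that measured it, against 0.43, 0.26 and -0.12 in Injured 4 hr, a rise of 1.42 ± 0.49 (SE, adjusted p = 0.0488). Fgf17, a patterning factor of the developing brain, had 1.65 and 1.30 in CKIN, against -0.23, -0.09 and 0.02 in Injured 4 hr, a rise of 1.57 ± 0.55 (adjusted p = 0.0499). The groups of both were apart, and the rises were 1.47 for Fgf16 and 1.40 for Fgf17 in corrected ratios with no call.

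Bmp1, which despite its name is a procollagen-cleaving protease, had 0.62 and 1.47 in CKIN, against -0.42, -0.41 and -0.39 in Injured 4 hr, a rise of 1.45 ± 0.45 (SE, adjusted p = 0.0382). Acvrl1, a type I receptor best known from endothelium, had -0.97 and -1.79 in CKIN, against 0.04, -0.14 and -0.31 in Injured 4 hr, a fall of -1.24 ± 0.36 (adjusted p = 0.0256). Both sets of arrays were apart, each on 2 CKIN arrays. In corrected ratios Bmp1 was at 0.99 and Acvrl1 at -0.78, neither called.

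Fgfr2 had -0.10, -0.15 and 0.44 in CKIN, against 1.66, 1.15 and 1.09 in Injured 4 hr, a fall of -1.24 ± 0.33 (SE, adjusted p = 0.019). Igf1 had -0.18, 0.19 and 0.68 in CKIN, against 1.66, 1.86 and 1.96 in Injured 4 hr, a fall of -1.60 ± 0.49 (adjusted p = 0.0302). Groups were apart for both genes, but in corrected ratios Fgfr2 was at -0.17 and Igf1 at 0.30, with the opposite sign. Myelin markers moved the same way, with 5 of 9 probes lower in CKIN, at array medians of -0.18 to 0.40 in CKIN and 1.76 to 2.06 in Injured 4 hr, and 0 of 9 called in corrected ratios. Astrocyte probes were lower for 3 of 8, at -0.24 to 0.21 in CKIN and 0.71 to 1.27 in Injured 4 hr. The part of these shifts in the falls of Fgfr2 and Igf1 was not tested. With 1 array left out, between 0 and 3 of the 53 probes were called in CKIN: 0 without Injured 4 hr 1, 1 without Injured 4 hr 2 or 3, 2 without CKIN 1 or 2 and 3 without CKIN 3.

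Acvr1b, Smad2 and Smad3 were not called in CKIN. Smad3 had -1.02, -1.24 and -0.71, against 0.09, 0.35 and -0.35 in Injured 4 hr, a difference of -1.02 (adjusted p = 0.0625). Acvr1b at -0.89 (adjusted p = 0.0944) and Smad2 at -0.91 (adjusted p = 0.135) were alike in size and direction, with groups apart. Of other probes that missed the threshold, Pdgfb, a PDGF ligand, had 1.18 and 0.25 in CKIN, against -0.51, -0.66 and -0.02 in Injured 4 hr, at 1.11. Both Tgfb1 probes (-0.92 and -1.02) and Tgfb3 (-0.94) were below Injured 4 hr with no call. The CKIN, MP and Acet comparisons all share the 3 Injured 4 hr arrays.

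Indomethacin and NS398 arrays had no unpooled vehicle group, so their ratios were tested against 0, which makes the pool 1 control sample and leaves its own variation unmeasured. The Injured 4 hr arrays were tested in the same way against the PBS pool, called like-with-like below because neither side had a drug. Those arrays cannot size the error of the Indo and NS398 tests, because the whole-number mark sets them apart. Such ratios made up 0.534% to 0.662% of their values, against 3.976% to 5.106% on the Indo and NS398 arrays. Like-with-like values are set beside Indo and NS398 values below as description only. In the Injured 4 hr test 3 of the 66 probes were called higher and 3 lower (9.09%). Of all 4865 probes 22% were called, 20.9% higher and 1.07% lower. Igf1 had 1.66, 1.86 and 1.96, at 1.83 ± 0.35 (SE, adjusted p = 0.00042 in limma). Fgfr2 was at 1.30 (adjusted p = 0.00032) and Pdgfa, a mitogen for oligodendrocyte progenitors, had 1.31, 1.64 and 1.28, at 1.41 (adjusted p = 0.0182). Fgfr1-ps1 had -1.03, -1.72 and -1.98, at -1.57 (adjusted p = 0.0007). Pdgfc, a ligand of the PDGF receptors, had -1.12, -0.72 and -0.68, at -0.84 (adjusted p = 0.0123), and Igf2 probe 52H10 had -0.59, -1.02 and -0.53, at -0.71 (adjusted p = 0.0151). All 9 myelin and all 11 neuron probes were also called higher there, with medians of 1.80 and 1.76. A ratio off 0 for these 6 probes therefore occurred on the Injured 4 hr arrays without any drug.

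In Indo cultures 8 of 48 tested probes were called, all lower (16.7%), against 13.1% of all 3803 probes, 2.52% higher and 10.6% lower. They fell in the TGF-beta and activin branch, in PDGF and IGF ligands and on the Fgfr1 pseudogene. The median of the 48 was -0.32 and that of all probes tested 0.02. All 3 Indo arrays were sparse. With 1 array left out, 6 to 8 were called. In corrected ratios 3 were called lower and 2 higher, the activin receptor Acvr2b (0.78, adjusted p = 0.0245) and Fgfr1 probe 48E12 (0.79, adjusted p = 0.0429), and after quantile normalization 9 were called lower and 2 higher.

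Smad2 had -2.18, -1.39 and -1.51 in Indo, at -1.69 ± 0.30 (SE, adjusted p = 0.000538). Acvr1b had -1.38, -1.78 and -1.55, at -1.57 ± 0.26 (adjusted p = 0.000294). Smad3 had -1.75, -0.68 and -0.70, at -1.04 ± 0.27 (adjusted p = 0.0108). All 9 values lay below 0, and the call on Smad3 was lost without Indo 1, whose value was the lowest, at -0.69. In corrected ratios Smad2 (-1.08, adjusted p = 0.0192) and Acvr1b (-1.0, adjusted p = 0.0197) were called and Smad3 (-0.67) was not. In the like-with-like arrays Smad2 was at -0.46, Acvr1b at -0.27 and Smad3 at 0.03, none called.

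Tgfb2 probe 52D10, for a TGF-beta ligand made by neurons and glia, had -2.01, -1.26 and -1.22 in Indo, at -1.50 ± 0.26 (SE, adjusted p = 0.000377), and -0.67 in corrected ratios (adjusted p = 0.0399), beside -0.63, not called, in like-with-like RNA. The other Tgfb2 probe, 29G03, was at -0.13 and not called, so the probes of this gene disagree. Inhbe, an activin subunit, had -1.72, -0.60 and -0.87 in Indo, at -1.06 ± 0.26 (adjusted p = 0.00692), and lost its call without Indo 1 and in corrected ratios, where it was -0.57. The remaining ligands of this branch, Tgfb1 (-0.73 and -0.37), Tgfb3 (-0.59), Bmp2 (-0.41), Bmp4 (-0.63) and Bmp7 (-0.64), were not called.

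Pdgfc had -1.75, -0.99 and -0.85 in Indo, at -1.20 ± 0.24 (SE, adjusted p = 0.00143). Igf2 probe 52H10 had -1.25, -1.08 and -1.40, at -1.24 ± 0.21 (adjusted p = 0.000306), while Igf2 probe 37F04 was at -0.34, not called. Fgfr1-ps1 had -1.42, -1.23 and -1.46, at -1.37 ± 0.32 (adjusted p = 0.0045). These 3 probes were below 0 in like-with-like RNA too, and in corrected ratios they were at -0.29 for Pdgfc, -0.39 for Igf2 and 0.03 for Fgfr1-ps1, none called. The highest differences in Indo were those of the FGF ligands Fgf5 (0.64) and Fgf7 (0.56) and of Fgfr2 (0.49), none called.

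In NS398 cultures 1 of 57 tested probes was called higher and 13 lower (24.6%), against 21.9% of all 4486 probes, of which 10.6% were higher and 11.3% lower. Of the 7 SMAD probes, 5 were called lower: Smad2, Smad3, Smad5, Smad7 and Smad9. With 1 array left out 6 to 11 probes were called: 6 without NS398 2 or 3 and 11 without NS398 1, the sparse array of this group. Fitted on the 3 NS398 arrays alone, 1 was called, the pseudogene probe Fgfr1-ps1, and none of the SMAD probes. In corrected ratios 3 were called lower and 4 higher, Inha (1.25), Acvr1 (0.87), Fgfr1 probe 52B08 (0.78) and Fgf14 (0.60), and after quantile normalization 10 were called lower and 4 higher.

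Among the SMAD proteins of the activin branch, Smad2 had -1.64, -1.29 and -1.23 in NS398, at -1.39 ± 0.30 (SE, adjusted p = 0.00272), and Smad3 had -1.53, -0.76 and -0.48, at -0.93 ± 0.27 (adjusted p = 0.0184). Of those of the BMP branch, Smad5 had -1.62 and -0.58 on the 2 arrays that measured it, at -1.10 ± 0.27 (adjusted p = 0.00751). Smad9 had -0.63, -0.69 and -5.06, at -2.13 ± 0.71 (adjusted p = 0.0374). The Smad9 value rests on NS398 3: without it the difference was -0.66 and not called. The inhibitory Smad7 had -0.63, -0.76 and -0.99, at -0.79 ± 0.26 (adjusted p = 0.0343), a call lost without any 1 of the 3 arrays. Smad1 (-0.29) and Smad4 (-0.39) were not called. In corrected ratios Smad5 alone of the 5 was called, at -0.72 (adjusted p = 0.0476), with Smad2 at -0.83 (adjusted p = 0.057).

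Of ligands and receptors, Tgfb3 had -0.97, -1.37 and -0.55 in NS398, at -0.96 ± 0.29 (SE, adjusted p = 0.0212), and was also called in corrected ratios, at -0.80 (adjusted p = 0.0287). Tgfb2 probe 52D10 had -1.29, -1.40 and -0.62, at -1.11 ± 0.26 (adjusted p = 0.00484), against -0.63 in like-with-like RNA, whereas Tgfb2 probe 29G03 was at 0.69, not called. Fgf9 had -0.68, -1.09 and -1.60, at -1.12 ± 0.31 (adjusted p = 0.0149), and was called in corrected ratios at -0.99 (adjusted p = 0.038). All 9 values were below 0. Without NS398 2 or 3 the call on Fgf9 was lost, and without NS398 1 or 2 that on Tgfb3. Acvr1b had -0.97, -0.98 and -0.42, at -0.79 (adjusted p = 0.0344), and Bmp4, a BMP ligand, was at -0.85 (adjusted p = 0.0391). Fgfbp1, which releases FGF ligands from the matrix, had -0.67, -1.55 and -1.23, at -1.15 ± 0.33 (adjusted p = 0.0171), against -0.40 in corrected ratios and -0.79 (not called) in like-with-like RNA.

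Igf1 was the one probe called higher in NS398, at 0.10, 1.38 and 1.92, with a difference of 1.13 ± 0.35 (SE, adjusted p = 0.0239). It lay below the 1.83 it reached in like-with-like RNA, was not called without NS398 2 or without NS398 3, and was 0.25 in corrected ratios. Fgfr1-ps1 had -1.47, -1.68 and -1.31, at -1.49 ± 0.32 (adjusted p = 0.00234), and Igf2 probe 52H10 was at -0.59 (adjusted p = 0.0495), both near their like-with-like values. The next highest differences in NS398 were Inha (0.89), Fgf17 (0.83) and Fgf18 (0.80), none called. Connective tissue markers were higher for 4 of 9 probes in NS398, at array medians of 1.05 to 1.18. Also called higher were 2 of 9 myelin, 2 of 3 blood, 1 of 11 neuron and 1 of 9 astrocyte probes. Of 9 endothelium probes 1 was higher and 2 were lower, and 0 of 6 microglia probes were called. In corrected ratios 5 connective tissue, 1 myelin and 1 endothelium probe were called higher, and 5 neuron, 2 astrocyte and 1 myelin probe lower. The part of these shifts in the results above was not tested.

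**Figure D4:**
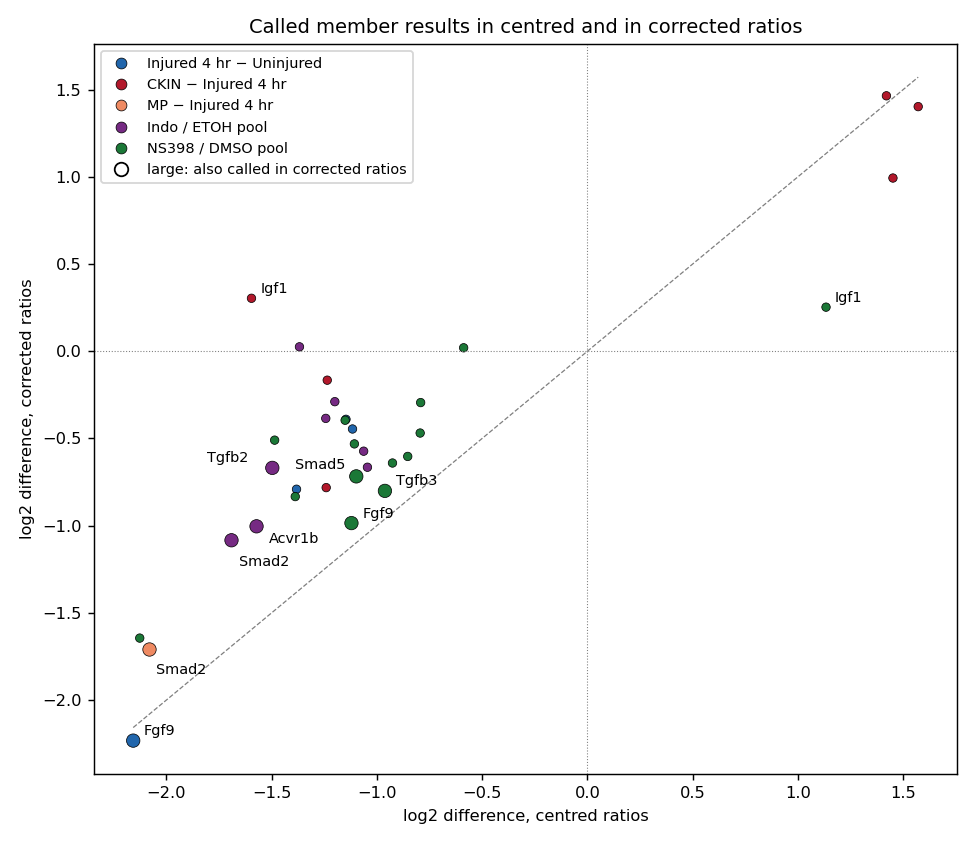
Each point is 1 of the 33 called results outside the like-with-like arrays, with its log2 difference in centred ratios (horizontal axis) and in corrected ratios (vertical axis), coloured by comparison, with large points for the 8 called in both and a dashed line of equal values. Of the 33, 31 are smaller in corrected ratios and 3 have the opposite sign, and Fgf9 in the injury comparison lies close to the line.

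Over the 5 comparisons with calls there were 33 called results on 23 probes. In corrected ratios 8 were called as well: Fgf9 in injury, Smad2 in MP, Smad2, Acvr1b and Tgfb2 probe 52D10 in Indo, and Smad5, Tgfb3 and Fgf9 in NS398. Of the 33, 31 were smaller in corrected than in centred ratios.

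The modulators of these pathways were counted from lists of other genes. Dcn is also on the connective tissue marker list, and Kdr and Flt1 are also on the endothelium list. The counts of those lists are therefore not separate observations. Of TGF-beta and BMP modulators and targets, 18 of 35 listed genes were measured, and 0 of 18 probes were called in injury, 0 of 10 in CKIN, 0 of 17 in MP and 0 of 18 in Acet. Of all probes, 14.1% were called in injury, 19.4% in CKIN, 2% in MP and 1.23% in Acet. In Indo 1 of 14 was lower, the BMP antagonist Grem1 (-1.02), against 10.6% of all probes lower. In NS398 4 of 18 were higher, the matrix proteoglycan Dcn (2.99), the BMP antagonist Nbl1 (1.95), the activin antagonist Fst (1.64) and the matrix protein Ccn2 (0.97), and 2 were lower, the BMP antagonist Chrd (-1.23) and Grem1 (-0.82). The shares of all probes in NS398 were 10.6% higher and 11.3% lower. In corrected ratios the calls of this list were 0 in Indo and 3 higher and 1 lower in NS398.

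Of FGF and PDGF modulators and receptor adaptors, 17 of 28 genes were measured. In injury 0 of 17 were higher and 4 lower: Vegfa (-2.89), a growth factor for vessels, the adaptor Grb2 (-1.51), and the heparan sulphate proteoglycans Sdc4 (-1.48) and Gpc1 (-1.0), against 13.4% of all probes lower. In corrected ratios the calls of this list were 2 higher and 2 lower in injury, 0 in CKIN, 1 higher and 0 lower in Indo, and 2 higher and 0 lower in NS398. The early response gene Egr1 (-1.34) was the 1 of 13 called in CKIN, lower, while 0 were called in MP and in Acet. The share of all probes called lower in CKIN was 18%. In Indo 2 of 16 were lower, Vegfa (-0.96) and its receptor Kdr (-1.19), against 10.6% of all probes lower. In NS398 4 of 16 were higher, the phosphatase Ptpn11 (1.62), Egr1 (1.52), Sdc4 (1.23) and the phospholipase Plcg1 (0.83), and 1 was lower, Kdr (-1.22). Among all probes tested in NS398, 10.6% were higher and 11.3% lower.

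The IGF axis, with 13 of 20 genes measured on up to 17 probes, gave calls in every comparison in centred ratios. In corrected ratios it gave 0 in injury, 0 in CKIN and 0 in MP, 2 lower in Acet, 4 lower in Indo, and 1 higher and 4 lower in NS398. Of all probes, 13.4% were called lower in injury, 18% in CKIN, 1.96% in MP, 1.14% in Acet, 10.6% in Indo and 11.3% in NS398. Akt1, a kinase downstream of IGF and insulin receptors, fell in injury (-1.41, 1 of 15). Genes of IGF binding proteins and an insulin receptor substrate were among those called lower: Igfbp6 (-2.20), Igfbp5 (-1.32) and Irs2 (-1.21) in CKIN (3 of 15), Igfbp5 (-1.80) and Igfbp6 (-1.65) in MP (2 of 16), and Igfbp2 (-2.55) and Igfbp6 (-2.28) in Acet (2 of 17). In Indo 7 of 16 were lower, led by Igfbp5 (-2.28), the adaptor Grb14 (-2.27), 1 Irs2 probe (-1.71) and Igfbp6 (-1.51). In NS398 6 of 15 were lower, among them Grb14 (-1.99), Igfbp5 (-1.85 and -1.22) and Irs2 (-1.51 and -0.94), while Igfbp2 was higher (2.33).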

How the data were processed

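The 21 arrays had 2 channels, sample and pool. What the authors deposited is a log2 ratio per probe and array, the log base being read from the values. How dyes, scanner, background correction and normalization were chosen is not given in the sources used here. Blank cells were missing spots. Each array was centred on its median after 52 Gapdh spots were averaged, which left 5325 probes. All arrays entered 1 fit in limma 3.58.1 (R 4.3.3) with 1 coefficient per group. A probe was tested if measured on at least 2 arrays of every group compared, with an adjusted p threshold of 0.05. Corrected ratios used a loess span of 0.4 and source plates with at least 20 probes. The number of arrays limits the precision. The fit was tested on simulated data. Symbols came from the platform annotation and were matched to RefSeq by gene identifier for all 66 probes. Promoters are RefSeq's, build GRCr8.

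Named probes are those called in any comparison (in NS398 the highest and lowest), the 3 highest and 3 lowest of each comparison and a fixed panel of ligands, receptors and SMAD genes. Smad7, Acvr1b, Bmp4 and Igf2 in NS398 and the corrected-ratio results are named beside them. Members, panel, lists and alternatives were chosen with earlier results of these data known.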

Additional observations from a re-analysis of the deposited data

How the results depend on the processing

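Direction in this table depends on the scaling, because uncentred ratios shift the median of all probes by 1.47 in injury, 1.54 in CKIN, 1.67 in MP, 1.64 in Acet, -0.98 in NS398 and -2.25 in Injured 4 hr against the PBS pool. In deposited ratios 44 of the family's probes were called in injury (against 4), 37 in CKIN (against 6), 41 in MP (against 1) and 44 in Acet (against 0), all higher, and 30 in NS398 (against 14) and 64 against the PBS pool (against 6), all lower. There the sign turned for Fgfr1 29C08 (0.14), Fgf13 (0.41) and Fgfr2 (0.18) in injury, for Fgfr2 (0.69), Acvrl1 (0.64) and Igf1 (0.33) in CKIN, and for Pdgfa (-0.79), Fgfr2 (-0.90) and Igf1 (-0.38) against the PBS pool. Quantile normalization left 0 calls in injury and 0 in MP, and gave 1 in Acet and 12 against the PBS pool. Corrected ratios gave 0 calls in CKIN, 5 in Indo (2 higher) and 7 in NS398 (4 higher), of which 3 in Indo and 3 in NS398 were also called in centred ratios, and turned Igf1 in CKIN (0.30), Fgfr1-ps1 in Indo (0.025) and Igf2 52H10 in NS398 (0.02). Requiring all 3 arrays gave 3 calls in CKIN and 2 in MP. Fits on the compared groups alone gave 12 in injury (5 higher and 7 lower), 13 in CKIN, 0 in MP, 1 in NS398 and 15 against the PBS pool. The sparse arrays as a block left 0 in CKIN. Against the PBS pool in place of the Injured 4 hr arrays, CKIN had 12, MP 19 and Acet 17, and Fgfr2 (0.063) and Igf1 (0.23) turned in CKIN. The cause of these changes was not tested, apart from fewer probes or samples where the setting itself removes them. With 1 array left out, the calls ran from 1 to 2 in injury, 0 to 3 in CKIN, 0 to 4 in MP, 0 to 1 in Acet, 6 to 8 in Indo, 6 to 11 in NS398 and 3 to 5 against the PBS pool. Without the sparse arrays, a setting chosen after seeing the data, the calls were 0 in Acet and 14 in NS398. In MP that setting leaves 1 array, with no spread of its own, so only a size is given: Smad2 was at -0.98. The array set as a block was not run for Indo, NS398 and the PBS pool test, and the corrected ratios of the Injured 4 hr arrays are 0 by construction.

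Deviations from the group mean had a median correlation of -0.004 over 63 pairs of same-numbered arrays of different groups (5 above 0.1). Over 126 pairs with different numbers it was 0 (10 above 0.1), so the replicate numbers were taken as names. Some arrays of different groups did deviate together, which the fit leaves out. The highest correlation was 0.451 for MP 2 with Acet 2, and 0.358 among different numbers. The fit with the replicate block called 2 members in injury, 2 in MP, 5 in CKIN, 8 in Indo, 14 in NS398, 6 against the PBS pool and 0 in Acet. Of the 39 called results, that block kept 34 on the same side of the threshold, and 28 of the 39 never had the opposite sign under any alternative.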
